A study of Homo sapiens with 24 samples.

Results

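The 56 genes described here encode the machinery of DNA replication and of mitosis, and they were followed across 8 groups of SW872 cells, a human liposarcoma cell line. They were picked by name for their known roles and were looked up by Ensembl identifier in the 24 deposited count tables. All 56 of the 60279 genes in each table were found: 27 act in S phase, when DNA is copied, and 29 act in mitosis, when the copies are separated. All 56 also passed the filter on low counts (5 counts or more on average across all 24), which kept 19997 genes for testing, and the lowest count of any member in any library was 26 for the S phase genes and 101 for the mitosis genes.

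Each group held 3 libraries from pooled stable lines, made by separate retroviral transductions of a double Flag construct in the pBabeNeo vector and by G418 selection, so no line was a single clone and every line carried the drug resistance vector. The confluent control carried the Empty Vector (EV), and EVsub was the same vector collected below confluence. TAZ-CAMTA1 and YAP-TFE3 are the fusion proteins of epithelioid hemangioendothelioma, a vascular sarcoma, while TAZ4SA and YAP5SA are TAZ and YAP in which serines phosphorylated by the LATS kinases were changed to alanine. CAMTA1 and TFE3 are the full-length proteins that supply the C-terminal part of each fusion. Cells were collected after 48 h at confluence except for EVsub and CAMTA1, which were sub-confluent, so CAMTA1 was compared with EVsub and every other construct with EV. The exception for CAMTA1 comes from the methods, whose wording could also take in TAZ-CAMTA1. The sample titles give no density for either group. TAZ-CAMTA1 was treated as confluent here and compared with both EV and EVsub.

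In a dividing cell, cyclin-dependent kinases release E2F transcription factors from the RB protein late in G1, and E2F then drives genes for licensing, DNA synthesis and nucleotide supply. Later, in G2, the factors MYBL2 (B-MYB) and FOXM1 work with the MuvB complex on promoters of mitosis genes, many of which hold a short element called CHR and a CCAAT box. In arrested cells the DREAM complex holds both sets down. Crowding activates the Hippo kinases LATS1 and LATS2, which keep YAP and TAZ out of the nucleus, and division then slows. EVsub against EV therefore served as the scale of contact inhibition, on which each construct was placed at confluence. Density and the 48 h at confluence differ together between EVsub and EV, so their parts cannot be told apart.

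The promoters of the S phase and mitosis genes differed in letters that the choice of genes did not use. RefSeq promoters (GRCh38.p14) were matched for 46 of the 56 genes, 23 of each set, and the 250 bases before the start were searched on both strands. Letters of the E2F site (TTTCCCGC, TTTCGCGC, TTTGCCGC or TTTGGCGC) were present in 12 of 23 S phase promoters and in 2 of 23 mitosis promoters, against 2.79% of all 27305 promoters. Letters of the CHR (TTTGAA or TTCGAA) were present in 2 of 23 S phase promoters and in 11 of 23 mitosis promoters, against 14.6% of all. Among further genes of the same processes, described below, E2F letters were present in only 3 of 33 replication and 1 of 35 mitosis promoters. The high E2F share of the S phase set was thus not seen in the wider replication list. CHR letters were present in 1 of 33 and 19 of 35 of these promoters. CCAAT was present in 16 and 18 of 23, against 33.0% of all, and a match is only a match of letters. The 100 bases just before the start of 4 S phase genes show E2F letters in capitals, together with any CCAAT or its reverse complement ATTGG. GINS2 belongs to the GINS part of the replicative helicase (chr16:85688955-85689054, minus strand), UHRF1 maintains DNA methylation behind the fork (chr19:4909401-4909500, plus strand), PCNA is the sliding clamp (chr20:5126623-5126722, minus strand) and E2F1 is itself an activator of S phase genes (chr20:33686386-33686485, minus strand).
GINS2: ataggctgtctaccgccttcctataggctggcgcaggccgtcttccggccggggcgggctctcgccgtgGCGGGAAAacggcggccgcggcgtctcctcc
UHRF1: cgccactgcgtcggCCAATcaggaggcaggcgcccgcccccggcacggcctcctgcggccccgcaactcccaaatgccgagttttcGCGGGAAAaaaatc
PCNA: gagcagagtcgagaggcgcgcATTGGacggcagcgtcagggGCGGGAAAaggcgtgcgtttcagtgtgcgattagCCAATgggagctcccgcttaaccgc
E2F1: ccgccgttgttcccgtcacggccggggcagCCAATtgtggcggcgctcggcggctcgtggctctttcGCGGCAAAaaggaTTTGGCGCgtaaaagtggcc

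The same stretch of 4 mitosis genes shows CHR letters (TTTGAA or its reverse complement TTCAAA) and CCAAT or ATTGG in capitals. PLK1 is a mitotic kinase (chr16:23678789-23678888, plus strand), CDC20 activates the anaphase-promoting complex (chr1:43358881-43358980, plus strand), CCNB2 is a B-type cyclin (chr15:59105046-59105145, plus strand) and KIF11 is the motor that pushes spindle poles apart (chr10:92593030-92593129, plus strand).
PLK1: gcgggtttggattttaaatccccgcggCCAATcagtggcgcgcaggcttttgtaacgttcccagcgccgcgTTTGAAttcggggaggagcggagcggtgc
CDC20: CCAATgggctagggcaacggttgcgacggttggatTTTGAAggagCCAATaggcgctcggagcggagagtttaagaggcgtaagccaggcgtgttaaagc
CCNB2: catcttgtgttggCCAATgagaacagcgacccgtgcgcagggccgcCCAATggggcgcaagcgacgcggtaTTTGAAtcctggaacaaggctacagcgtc
KIF11: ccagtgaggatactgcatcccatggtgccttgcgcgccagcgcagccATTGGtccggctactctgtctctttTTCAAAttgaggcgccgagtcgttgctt

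Library totals ran from 19700277 to 35287476 counts, and S phase genes took 0.298% ± 0.0168 and mitosis genes 0.355% ± 0.0307 of the counts in EV (SD, n = 3). Levels are given in CPM, the counts per library scaled to a common total after TMM normalization. The mesenchymal gene FN1 was at 3549 CPM or more in EV, and the leukocyte gene PTPRC was at 0 in all 3 EV libraries. Other mesenchymal and blood cell markers, and those of epithelium and endothelium, are not reported here. Of 6 adipocyte genes, PPARG was at 43.0 to 51.1 and LPL at 105 to 171 CPM in EV, CEBPA and PLIN1 were under 1 CPM, and ADIPOQ and FABP4 were at 0. LPL and PPARG were at 257 ± 15.2 and 87.3 ± 21.8 CPM in YAP-TFE3 and 38.5 ± 6.88 and 28.9 ± 1.96 in the libraries labelled TAZ4SA (SD, n = 3). Their part in the results was not tested. As a check of the labels, TFE3 was at 336 ± 19.3 CPM in TFE3 and 283 ± 49.6 in YAP-TFE3 against 119 ± 10.1 in EV, CAMTA1 at 144 ± 7.14 in TAZ-CAMTA1 and 124 ± 8.09 in CAMTA1 against 21.4 ± 2.05, and YAP1 at 253 ± 4.99 in YAP5SA against 128 ± 12.5 (SD, n = 3 throughout). WWTR1, which encodes TAZ, was at 134 ± 0.539 CPM in the libraries labelled TAZ4SA against 204 ± 20.3 in EV (log2 fold change -0.60 ± 0.08 (SE), adjusted p = 9.77e-07 in edgeR's quasi-likelihood test). It was also below EV in TAZ-CAMTA1, at 181 ± 2.15 CPM, and in YAP5SA, at 68.7 ± 1.66 (SD, n = 3). The level of WWTR1 therefore did not check the TAZ4SA label, and every statement about TAZ4SA rests on the libraries labelled so.

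Replicate 3 of YAP-TFE3 stood apart from replicates 1 and 2 in the S phase genes. It was the highest of the 3 libraries for 25 of 27 S phase genes, with a median ratio of 2.03 to the mean of the other two (range 0.771 for BRCA1 to 4.91 for E2F2), and the ratio was at least 1.5 in 77.8% of them against 9.33% of all genes tested. For mitosis genes the median ratio was 0.940, and none of 29 reached 1.5. E2F1 was at 10.6 and 10.4 CPM in replicates 1 and 2 and at 41.4 in replicate 3, while EV was between 46.0 and 49.99. The S phase share of all counts was 0.0980%, 0.0955% and 0.183% in replicates 1 to 3, mitochondrial transcripts took 3.63%, 3.79% and 5.12%, and TFE3 itself was at 296, 325 and 228 CPM. Whether these move together for a common reason was not tested. Because all 24 libraries share an estimate of spread per gene, this library also widens the errors of S phase genes in every comparison, so counts without it are given where they differ. Shares of all genes are given only for the fit of all 24 libraries with TMM. A count of members from any other fit therefore has no share of all genes beside it.

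**Figure D1:**
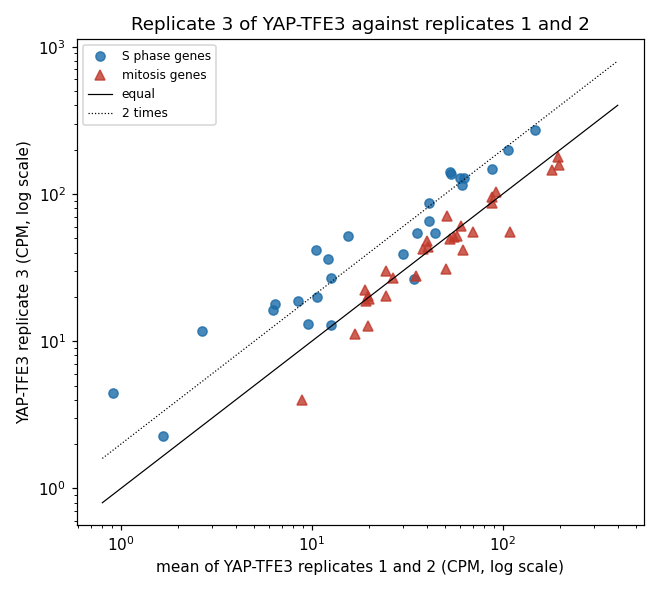
Level of each gene in YAP-TFE3 replicate 3 (vertical axis, CPM, log scale) against the mean of replicates 1 and 2 (horizontal axis, CPM, log scale), with circles for the 27 S phase genes and triangles for the 29 mitosis genes. The solid line marks equal levels and the dotted line a ratio of 2. Most circles lie near or above the dotted line, at a median ratio of 2.03, while the triangles follow the solid line at a median of 0.940.

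Sub-confluent cells expressed more of nearly all 56 genes than confluent cells. In EVsub against EV, 17 of 27 S phase genes and 28 of 29 mitosis genes rose at an adjusted p under 0.05 in edgeR's quasi-likelihood test, where 19.8% of all genes tested rose, and none fell, where 17.1% of all fell. The median log2 fold change was 0.61 for S phase genes and 0.75 for mitosis genes, against -0.02 over all genes tested. All 3 EVsub libraries lay above all 3 EV libraries for 26 of 27 S phase genes and for 29 of 29 mitosis genes, compared with 27.7% of all genes. These are bulk samples, in which fewer cells in a phase and less RNA per cell cannot be told apart.

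Among S phase genes, CCNE2 and RRM2 had the largest fold changes with density. CCNE2, a partner of CDK2 at S phase entry, was at 4.80, 3.35 and 3.30 CPM in EV and at 13.2, 11.4 and 12.4 in EVsub, a log2 fold change of 1.69 ± 0.19 (SE, adjusted p = 1.96e-06, edgeR). RRM2, the regulated subunit of ribonucleotide reductase, was at 120, 121 and 112 CPM in EV and at 259, 248 and 269 in EVsub (1.13 ± 0.26, adjusted p = 0.00178). The groups were far apart for both genes. The clamp PCNA, at 240, 241 and 206 CPM in EV and 369, 385 and 372 in EVsub, rose by 0.71 ± 0.22 (adjusted p = 0.0144). PCNA and TYMS, the thymidylate synthase, lost their calls without EV replicate 3 (adjusted p = 0.0661 and 0.0691). CDC6, which loads the MCM helicase, rose by 0.93 ± 0.13 (adjusted p = 1.51e-05).

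The other E cyclin behaved differently. CCNE1 was at 11.9, 12.6 and 13.1 CPM in EV and at 12.9, 12.5 and 12.04 in EVsub, so the ranges overlapped. It was the only S phase gene without a positive fold change in this comparison. MCM2, MCM3, MCM5 and MCM7, subunits of the helicase that unwinds DNA, were also not called, nor were CDT1, GINS1, POLE, E2F1 and E2F2. E2F1, for example, was at 46.0, 49.99 and 46.5 CPM in EV and at 67.3, 66.0 and 67.5 in EVsub, with no overlap but an adjusted p of 0.197 (log2 fold change 0.49 ± 0.29). Without YAP-TFE3 replicate 3 in the fit the S phase count was 24 and E2F1 had an adjusted p of 0.00130, and with EV and EVsub fitted alone the count was 26. After an offset for the GC content of each gene's longest transcript it was also 24. Whether calls over all genes also became more frequent in these fits is not given.

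Mitosis genes rose together at low density, CENPE and TTK by the most. CENPE, a kinetochore motor, was at 20.4, 10.5 and 11.5 CPM in EV and at 101, 50.6 and 63.5 in EVsub (2.33 ± 0.38, adjusted p = 6.04e-05). TTK, the spindle checkpoint kinase also called MPS1, was at 39.5, 24.1 and 27.9 CPM in EV and at 99.2, 79.6 and 82.8 in EVsub (1.51 ± 0.25, adjusted p = 9.30e-05). For both genes replicate 1 was the highest of the EV libraries. The engine of mitotic entry, CDK1 with cyclins A and B, followed: CDK1 rose by 1.26 ± 0.17, CCNA2 by 1.11 ± 0.15 and CCNB1 by 0.71 ± 0.10 (adjusted p = 1.90e-05 or less). CCNB1 was at 375, 376 and 342 CPM in EV and at 595, 622 and 574 in EVsub. The proliferation markers TOP2A and MKI67 rose by 0.90 ± 0.17 and 0.83 ± 0.13, and the regulator FOXM1 by 0.74 ± 0.12. MYBL2 was the only mitosis gene not called, at 186, 203 and 170 CPM in EV and 215, 243 and 247 in EVsub (adjusted p = 0.0819).

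Each group was placed on this scale by the median, over the genes of a set, of the log2 difference from the EV mean. For S phase genes this was 0.62 ± 0.03 in EVsub, 0.63 ± 0.13 in CAMTA1, -0.16 ± 0.21 in TFE3, -0.04 ± 0.11 in TAZ-CAMTA1, -0.19 ± 0.16 in the libraries labelled TAZ4SA, -0.03 ± 0.15 in YAP5SA and -1.30 ± 0.52 in YAP-TFE3 (SD, n = 3). For mitosis genes it was 0.78 ± 0.03, 0.86 ± 0.19, -0.21 ± 0.28, 0.00 ± 0.12, 0.38 ± 0.06, 0.40 ± 0.14 and -0.98 ± 0.12 in the same order. Both sets were thus high in both sub-confluent groups and low in YAP-TFE3. The S phase median minus the mitosis median was between -0.69 and -0.51 in the libraries labelled TAZ4SA and between -0.46 and -0.40 in YAP5SA. It was 0.01 ± 0.06 in EV, -0.16 ± 0.06 in EVsub and -0.23 ± 0.06 in CAMTA1, and in YAP-TFE3 it was -0.78, -0.51 and 0.35 in replicates 1, 2 and 3. A gap this wide was not seen in TAZ4SA or YAP5SA for the further replication and mitosis genes described below. Their medians were -0.14 ± 0.05 and 0.01 ± 0.04 in the libraries labelled TAZ4SA, and -0.03 ± 0.06 and 0.11 ± 0.06 in YAP5SA. In EVsub they were 0.55 ± 0.01 and 0.84 ± 0.06 (SD, n = 3).

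**Figure D2:**
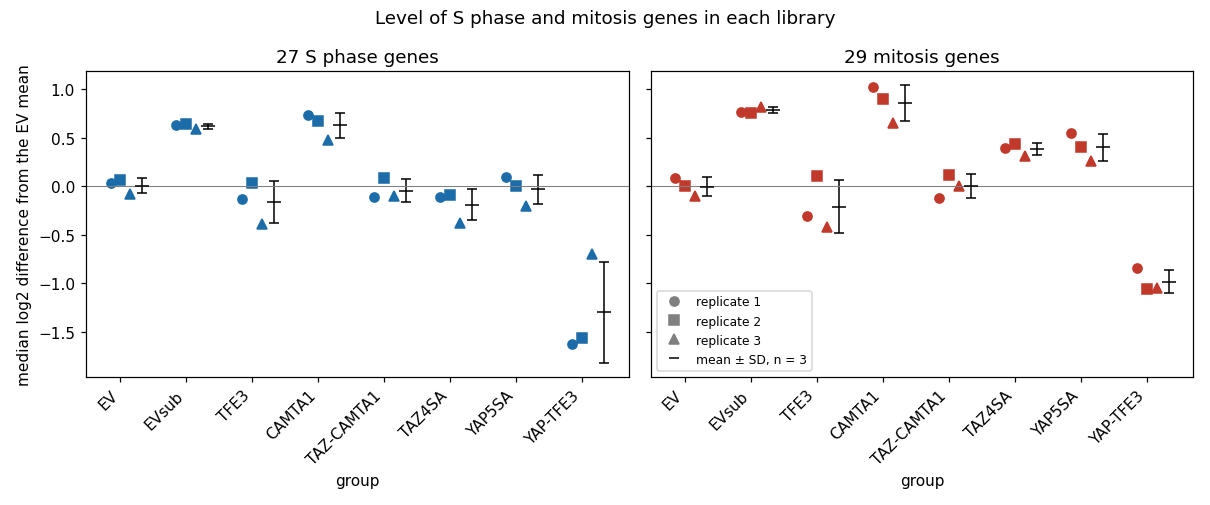
Median log2 difference from the EV mean (vertical axis) over the 27 S phase genes (left) and the 29 mitosis genes (right) in each of the 24 libraries, by group, with the mean ± SD of 3 libraries beside them. EVsub and CAMTA1 lie highest and YAP-TFE3 lowest in both panels, whereas TAZ4SA and YAP5SA lie near EV on the left and 0.38 and 0.40 above it on the right. Replicate 3 of YAP-TFE3 is the triangle at -0.70 on the left.

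In YAP-TFE3 both sets were lower than in confluent control cells. In YAP-TFE3 against EV, 25 of 27 S phase genes and 25 of 29 mitosis genes fell, where 22.6% of all genes tested fell, and none rose, where 25.6% of all rose. The median log2 fold change was -1.22 for S phase genes and -0.97 for mitosis genes, against -0.01 over all genes. All 3 libraries lay below all 3 EV libraries for 25 S phase and 24 mitosis genes, compared with 24.7% of all genes. Without replicate 3, 26 S phase and 24 mitosis genes fell.

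Among S phase genes UHRF1, E2F2 and RRM2 fell furthest. UHRF1 was at 66.6, 60.5 and 49.8 CPM in EV and at 8.55, 8.42 and 18.9 in YAP-TFE3 (-2.30 ± 0.22, adjusted p = 9.15e-09, edgeR). RRM2 was at 14.8, 16.1 and 51.6 CPM in YAP-TFE3 against 112 or more in each EV library (-2.09 ± 0.28, adjusted p = 9.96e-07), and TYMS at 12.4, 12.9 and 26.9 against 55.7 or more (-1.85 ± 0.20, adjusted p = 4.19e-08). No library of the 2 groups overlapped for these genes, even with replicate 3. The factor E2F2 was at 10.2, 10.3 and 9.07 CPM in EV and at 1.01, 0.817 and 4.48 in YAP-TFE3 (-2.20 ± 0.34, adjusted p = 7.61e-06), and E2F1 fell by 1.19 ± 0.30 (adjusted p = 0.00229), mostly in replicates 1 and 2. The helicase and licensing genes fell in 12 of 12 cases, among them MCM5 (-1.45 ± 0.21) and MCM2 (-1.37 ± 0.19), and PCNA was at 53.0, 52.3 and 140 CPM (-1.48 ± 0.23). CDC6 fell less (-0.56 ± 0.13), at 37.3, 33.5 and 53.9 CPM against 56.8 or more in EV.

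A pair of S phase genes did not pass the test in YAP-TFE3. E2F8, a repressor of the E2F family, was at 13.8, 11.5 and 12.9 CPM against 12.5, 11.5 and 11.2 in EV, so the ranges overlapped. CCNE1 was at 8.88, 10.1 and 13.1 CPM against 11.9, 12.6 and 13.1, and was called lower without replicate 3. CCNE2, by contrast, fell by 1.03 ± 0.21 (adjusted p = 0.000283), at 1.89, 1.44 and 2.29 CPM.

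For mitosis genes the 3 YAP-TFE3 libraries lay closer together, with medians of -1.06 to -0.85 relative to EV. MYBL2 was at 50.1, 52.5 and 71.2 CPM against 170 or more in EV (-1.68 ± 0.15, adjusted p = 3.47e-09), and CCNA2 at 20.5, 17.4 and 22.1 against 43.2 or more (-1.38 ± 0.15, adjusted p = 5.96e-08). TOP2A, CDC20, BIRC5 (survivin) and MKI67 fell by 1.25 to 1.33, and PLK1, FOXM1 and CCNB1 by 0.95 to 0.97. The kinase AURKA fell least among the called representatives (-0.48 ± 0.12, adjusted p = 0.00133). BUB1, CENPA, CENPF and HMMR did not pass the test. HMMR, a spindle protein, was at 63.5, 37.1 and 30.8 CPM against 72.6, 49.3 and 45.3 in EV, and CENPF at 136, 81.6 and 55.3 against 136, 94.8 and 97.9, so both groups overlapped. CENPE was called lower in the full fit but not without replicate 3.

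**Figure D3:**
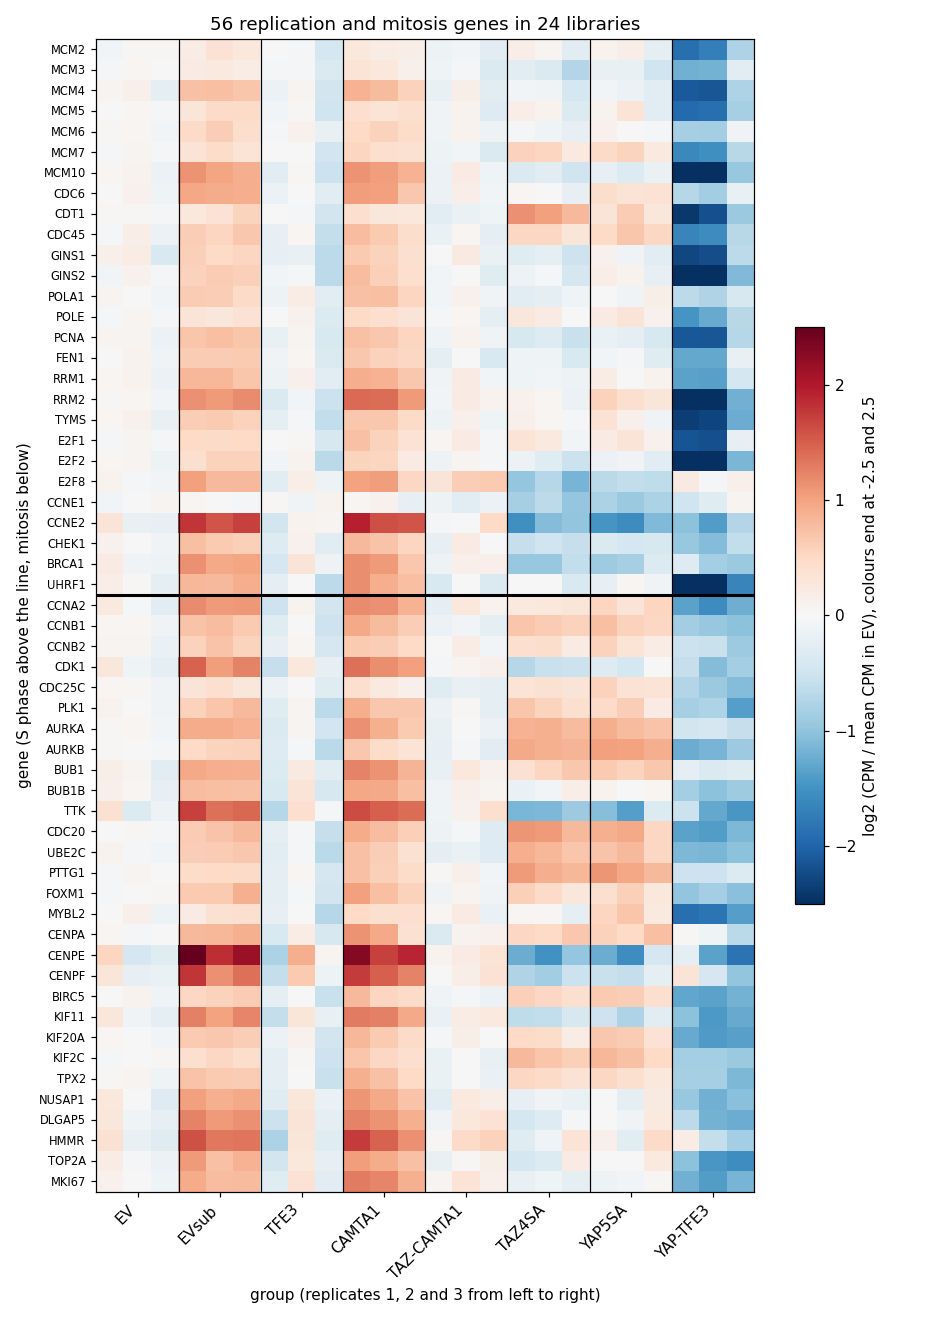
Level of the 56 genes (rows, S phase above the line and mitosis below) in the 24 libraries (columns, 3 per group), as log2 of the CPM over the mean CPM in EV, with red for higher and blue for lower. EVsub and CAMTA1 are red in nearly every row and YAP-TFE3 is blue in most, with its replicate 3 paler in the S phase rows, where that library was highest for 25 of 27 genes.

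In the libraries labelled TAZ4SA many of the 29 mitosis genes rose, and S phase genes moved little as a set. Against EV, 16 mitosis genes rose and 5 fell, while 3 S phase genes rose and 6 fell, where 25.1% of all genes tested rose and 24.2% fell. The S phase counts were thus no greater than the background, and the mitosis genes that rose made up 55.2% of their set. Such a share was not seen in the wider mitosis list described below, where 8 of 40 genes rose (20%) and 9 fell (22.5%). The median log2 fold change was -0.19 for S phase and 0.35 for mitosis genes, against -0.03 over all genes. Scaling to total counts in place of TMM moved the median of all genes by -0.20 and gave 8 mitosis genes higher and 6 lower, and 1 S phase gene higher and 9 lower. Without YAP-TFE3 replicate 3 the S phase genes were 3 higher and 9 lower.

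In YAP5SA against EV, 18 mitosis genes rose and 3 fell, and 3 S phase genes rose and 5 fell, where 22.7% of all genes rose and 21.6% fell. The medians were 0.02 and 0.43, against -0.04 over all genes. Of the 40 other mitosis genes described below, 8 rose (20%) and 4 fell (10%). With total-count scaling, which moved the median of all genes by -0.18, 11 mitosis genes rose and 3 fell, and no S phase gene rose and 6 fell. Without EV replicate 3, 5 S phase genes were called lower and none higher, and without YAP-TFE3 replicate 3 the counts were 5 higher and 7 lower. This comparison and that of the libraries labelled TAZ4SA share the 3 EV libraries, so the values of both are set side by side below and their likeness was not tested.

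The mitosis genes that rose included those that act at the end of mitosis and those that start it. CDC20 was at 104, 105 and 101 CPM in EV, at 221, 215 and 181 in the libraries labelled TAZ4SA (0.99 ± 0.13, adjusted p = 6.82e-07, edgeR) and at 192, 200 and 148 in YAP5SA (0.80 ± 0.13, adjusted p = 1.51e-05). PTTG1, the securin that restrains separase until CDC20 triggers its loss, was at 127, 138 and 132 CPM in EV, at 277, 250 and 236 in the libraries labelled TAZ4SA (0.94 ± 0.10, adjusted p = 6.39e-08) and at 285, 259 and 233 in YAP5SA (0.97 ± 0.10, adjusted p = 4.09e-08). No library overlapped with EV for either gene. CCNB1 was at 589, 566 and 543 CPM in the libraries labelled TAZ4SA and at 614, 544 and 519 in YAP5SA, against 342 to 376 in EV (0.63 ± 0.10 and 0.62 ± 0.10). All 3 mitotic kinases of the set rose in both comparisons, AURKA by 0.85 ± 0.12 and 0.81 ± 0.12 and PLK1 by 0.55 ± 0.15 and 0.44 ± 0.15, and AURKB was at 101 to 108 and 106 to 114 CPM against 54.1 to 57.4 in EV. PLK1 lost its call in YAP5SA without any 1 of 4 of the 6 libraries. FOXM1 rose by 0.46 ± 0.12 and 0.43 ± 0.12, and BIRC5 by 0.50 ± 0.11 and 0.56 ± 0.11. CCNA2 was called higher in YAP5SA (0.47 ± 0.15, adjusted p = 0.0115) but not without EV replicate 3 (adjusted p = 0.0773), and was at 61.4, 62.4 and 63.8 CPM in the libraries labelled TAZ4SA against 61.7, 50.8 and 43.2 in EV.

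The mitosis genes called lower in YAP5SA were CENPE, TTK and KIF11, and those called lower in the libraries labelled TAZ4SA were CENPE, TTK, KIF11, CDK1 and CENPF. CENPE was at 6.03, 4.94 and 7.22 CPM in the libraries labelled TAZ4SA (-1.23 ± 0.40, adjusted p = 0.0138) and at 5.95, 4.81 and 10.5 in YAP5SA (-0.99 ± 0.40, adjusted p = 0.0462). TTK was at 13.8, 14.0 and 16.2 CPM (-1.06 ± 0.26, adjusted p = 0.00192) and at 14.6, 11.7 and 23.99 (-0.86 ± 0.26, adjusted p = 0.0101). KIF11 fell by 0.55 ± 0.18 and 0.51 ± 0.18, and CDK1 in the libraries labelled TAZ4SA was at 20.5, 22.99 and 23.2 CPM against 41.2, 31.3 and 28.4 in EV (-0.60 ± 0.18, adjusted p = 0.00688). These calls depended on single libraries and, for some genes, on an offset for GC content. Without EV replicate 1, CDK1, CENPE, CENPF and KIF11 were not called in TAZ4SA and CENPE, TTK and KIF11 were not called in YAP5SA (adjusted p from 0.0711 to 0.273). The 5 genes that fell in TAZ4SA had transcripts of 35.4% to 40.8% GC, whereas the 16 that rose had 41.9% to 57.9%. In YAP5SA the 3 that fell had 35.4% to 40.8% and the 18 that rose had 41.9% to 60.5%, so these ranges did not overlap either. With an offset for GC content, TTK and CENPE were still lower in TAZ4SA (-0.81 and -0.76, adjusted p = 0.00276 and 0.0432), but CDK1, KIF11 and CENPF were not called (-0.19, -0.25 and -0.47, adjusted p = 0.180, 0.106 and 0.0863), and the count was 18 higher and 2 lower. An offset for exon length left it at 16 and 5.

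Among S phase genes, CCNE2 fell furthest in both mutants, and the licensing factor CDT1 rose most in the libraries labelled TAZ4SA. These calls also differed in GC content. In the libraries labelled TAZ4SA the 3 S phase genes that rose had transcripts of 52.0% to 64.3% GC, with CDT1 at 64.3%. The 6 that fell had 36.9% to 51.7%, with CCNE2 at 36.9%. In YAP5SA the ranges of the S phase genes overlapped, at 44.8% to 57.6% for those that rose and 36.9% to 51.7% for those that fell. CDT1 was at 31.5, 31.7 and 29.9 CPM in EV and at 68.9, 63.4 and 54.0 in the libraries labelled TAZ4SA (1.00 ± 0.22, adjusted p = 0.000529), with no overlap, while YAP5SA, at 38.6, 47.9 and 37.7, was above EV but not called. CCNE2 was at 1.33, 1.80 and 1.93 CPM in the libraries labelled TAZ4SA (-1.19 ± 0.22, adjusted p = 0.000110) and at 1.37, 1.28 and 1.77 in YAP5SA (-1.37 ± 0.23, adjusted p = 3.28e-05), below every EV library. CCNE1, which was not called with density, was at 7.03, 7.99 and 6.40 CPM and at 7.27, 6.57 and 7.23 (-0.81 ± 0.13 and -0.83 ± 0.13, adjusted p = 1.22e-05 and 1.05e-05). E2F8 fell as well, from 11.2 to 12.5 CPM in EV to between 7.32 and 7.66 in YAP5SA and between 5.25 and 7.13 in the libraries labelled TAZ4SA. The checkpoint kinase CHEK1 and the repair gene BRCA1 were also called lower in both, BRCA1 at 26.1, 26.1 and 33.1 CPM and at 27.3, 28.4 and 39.9 against 58.0, 47.4 and 46.0 in EV. MCM7 and CDC45, both parts of the active helicase, were called higher in both (0.44 ± 0.17 and 0.57 ± 0.18 in YAP5SA, against 0.46 ± 0.17 and 0.44 ± 0.18 in the libraries labelled TAZ4SA). In the libraries labelled TAZ4SA both lost the call without any 1 of 4 of the 6 libraries, with the GC offset and with total-count scaling, and in YAP5SA with total-count scaling, MCM7 also without any 1 of 5 libraries and CDC45 without EV replicate 3. The MCM7 gene also overlaps exons of AP4M1 and MIR93, 1 on its own strand and 1 on the opposite strand. CHEK1 and BRCA1, among other members, each overlap exons of 1 gene on their own strand. How strand was handled in counting is not stated, so the counts of these genes are uncertain. PCNA and RRM2 were not called in either mutant. PCNA was at 204, 194 and 172 CPM in YAP5SA and at 173, 184 and 156 in the libraries labelled TAZ4SA, and RRM2 at 177, 156 and 145 and at 127, 122 and 106.

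**Figure D4:**
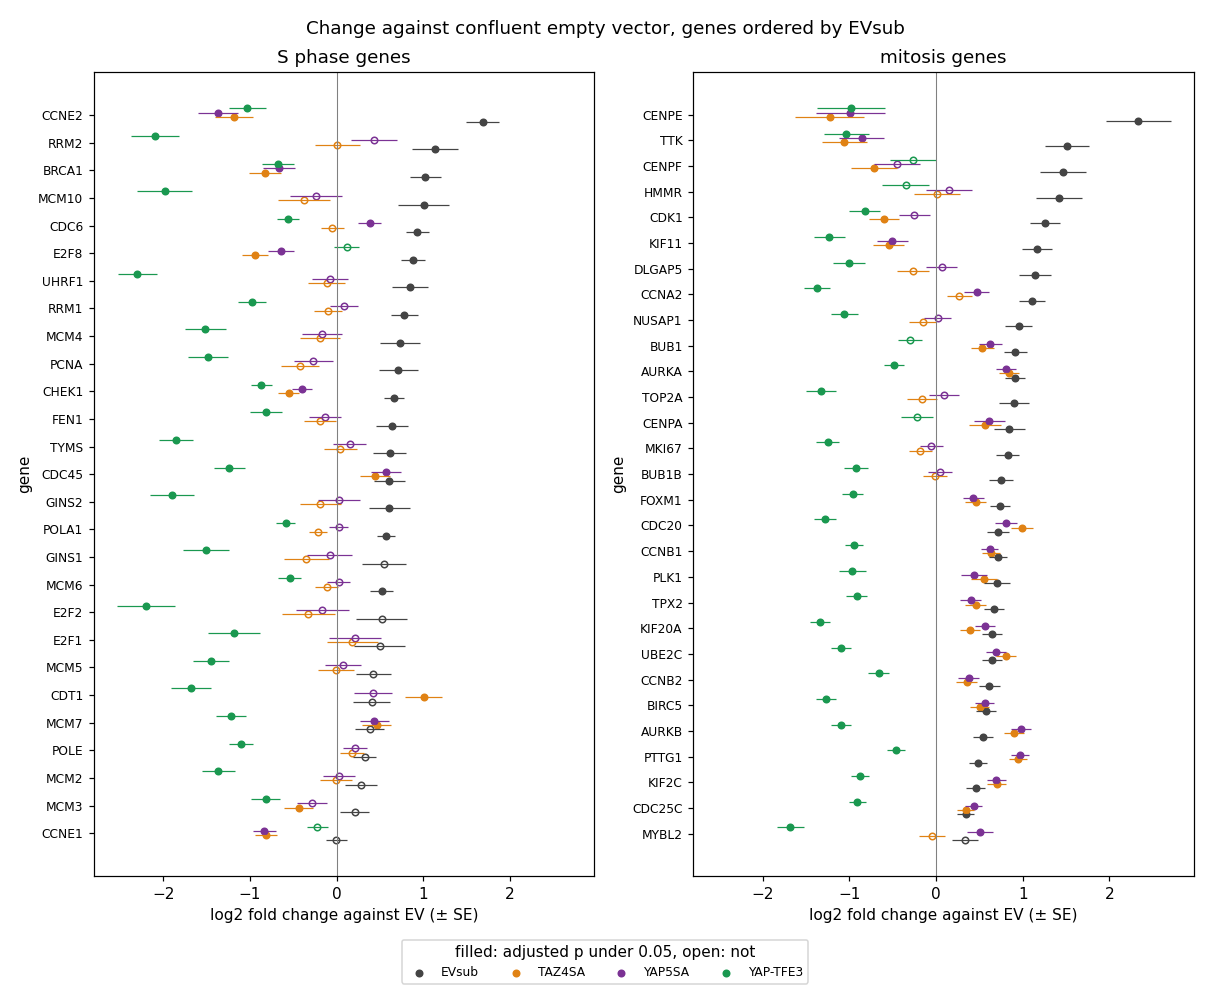
Log2 fold change against EV ± SE (horizontal axis) of each S phase gene (left) and mitosis gene (right) in EVsub, TAZ4SA, YAP5SA and YAP-TFE3, with filled points for an adjusted p under 0.05 and genes ordered by EVsub. On the right the TAZ4SA and YAP5SA points run from about -1 for CENPE at the top, the gene that rose most in EVsub, to about 1 for PTTG1 and AURKB near the bottom, where they pass EVsub.

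In TAZ-CAMTA1, whose density at collection rests on a reading of the methods, almost none of the 56 genes passed the test against confluent EV. Against EV, 1 of 27 S phase genes and 0 of 29 mitosis genes were called, where 4.98% of all genes tested changed in either direction, and an unadjusted p under 0.05 was reached by 1 S phase and 1 mitosis gene, against 17.9% of all genes. The medians were -0.04 and 0.03, against 0.00 over all genes. The S phase gene was E2F8, at 14.7, 17.98 and 18.5 CPM against 12.5, 11.5 and 11.2 in EV (0.54 ± 0.14, adjusted p = 0.0252), and its call was lost without any 1 of 4 of the 6 libraries (adjusted p from 0.0925 to 0.141). PCNA, at 212, 243 and 214 CPM, and CCNB1, at 329, 350 and 312, overlapped with or lay just below EV. DESeq2 also called 1 S phase gene and 0 mitosis genes.

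TFE3 and CAMTA1, the partner proteins, gave no call. In TFE3 against EV no member passed the test in edgeR, where 0.035% of all genes changed. An unadjusted p under 0.05 was reached by 0 S phase genes and by 6 of 29 mitosis genes (20.7%), against 3.79% of all genes, and 1 of 27 S phase and 2 of 29 mitosis genes had a positive fold change. The medians were -0.14 and -0.18, and the 3 TFE3 libraries spread widely, with TOP2A at 339, 553 and 400 CPM. In CAMTA1 against EVsub no member passed either, where 1.83% of all genes changed, and 0 and 1 had an unadjusted p under 0.05, against 12.4% of all genes. The medians there were 0.01 and 0.02. DESeq2 called 0 members in either comparison.

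**Figure D5:**
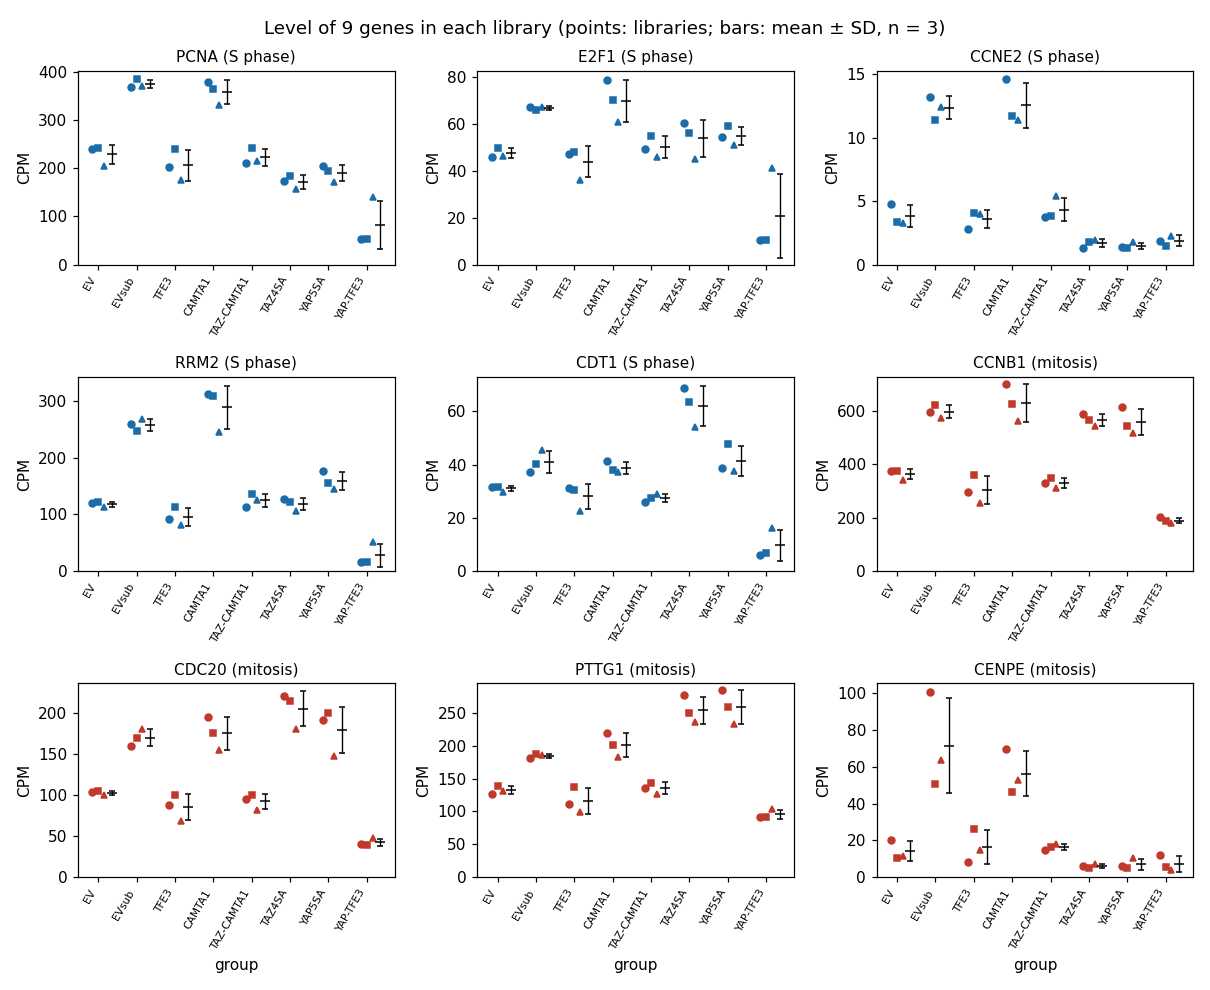
CPM of 5 S phase genes and 4 mitosis genes (vertical axes, from 0) in each library by group, with bars for the mean ± SD of 3 libraries. By group mean, CDC20 and PTTG1 are highest in TAZ4SA and YAP5SA, CDT1 in TAZ4SA, at 54.0 to 68.9 CPM, and CENPE and CCNE2 in the sub-confluent groups. PCNA, E2F1 and RRM2 show YAP-TFE3 replicate 3 above the other two.

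Set against sub-confluent cells, all 4 fusion and mutant groups had a median S phase level below that of EVsub. TAZ-CAMTA1 was lower than EVsub in 20 S phase and 28 mitosis genes, where 19.1% of all genes were lower. Its 20 became 25 without YAP-TFE3 replicate 3. YAP-TFE3 was lower in 26 and 29, where 26.1% of all were, with RRM2 at -3.23 ± 0.29 and CENPE at -3.31 ± 0.39. In the libraries labelled TAZ4SA 20 S phase genes were lower and 1 higher, and 15 mitosis genes lower and 2 higher, where 27.7% of all genes were lower and 30.2% higher. YAP5SA was lower in 19 S phase genes and in 13 mitosis genes and higher in 2 mitosis genes, where 26.1% of all were lower and 27.5% higher. These comparisons share the 3 EVsub libraries.

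The genes above EVsub were few. PTTG1, at 182, 188 and 185 CPM in EVsub, was higher in YAP5SA (0.49 ± 0.10, adjusted p = 0.000294) and in the libraries labelled TAZ4SA (0.46 ± 0.10, adjusted p = 0.000472), with no overlap. AURKB, at 78.7, 81.9 and 83.9 CPM in EVsub, was also higher in both (0.35 ± 0.12 and 0.44 ± 0.12), but not with the GC offset (adjusted p = 0.639 and 0.140). CDT1, at 37.4, 40.1 and 45.5 CPM in EVsub, was higher in the libraries labelled TAZ4SA (0.60 ± 0.21, adjusted p = 0.0201), but not with total-count scaling (adjusted p = 0.0659), with the GC offset (0.12, adjusted p = 0.628) or without any 1 of 3 of the libraries. At the other end CENPE, TTK and CCNE2 were far below EVsub in both mutants. With TAZ4SA given first and YAP5SA after it, the log2 fold changes were -3.56 ± 0.41 and -3.32 ± 0.40 for CENPE, -2.57 ± 0.27 and -2.37 ± 0.27 for TTK, and -2.87 ± 0.21 and -3.06 ± 0.22 for CCNE2. CCNB1, AURKA, PLK1 and CDC20 did not pass the test against EVsub in either mutant. CDC20, for instance, was at 160, 170 and 181 CPM in EVsub.

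The fusions were also compared with the mutants of their parent proteins. In TAZ-CAMTA1 against the libraries labelled TAZ4SA, 5 S phase genes were higher and 3 lower, and 7 mitosis genes higher and 16 lower, where 26.9% of all genes were higher and 26.8% lower. The log2 fold change was 1.48 ± 0.15 for E2F8 (adjusted p = 1.55e-08), 1.36 ± 0.22 for CCNE2 and 1.44 ± 0.40 for CENPE, and -1.18 ± 0.22 for CDT1, -1.15 ± 0.13 for CDC20 and -1.07 ± 0.12 for AURKB. Total-count scaling, which moved the median of all genes by 0.20, gave 8 higher and 2 lower S phase genes and 8 higher and 12 lower mitosis genes, the GC offset gave 4 higher and 18 lower mitosis genes, and without YAP-TFE3 replicate 3 the S phase genes were 9 higher and 4 lower. In YAP-TFE3 against YAP5SA, 23 S phase genes were lower and 2 higher, and 25 mitosis genes were lower and 0 higher, where 24.3% of all genes were lower and 28.1% higher. RRM2 differed by -2.53 ± 0.28, MYBL2 by -2.19 ± 0.16 and CDC20 by -2.08 ± 0.13. E2F8 and CCNE1 were the S phase genes higher in YAP-TFE3 (0.76 ± 0.15 and 0.61 ± 0.13, adjusted p = 0.000141 and 0.000307).

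Over the 8 groups, the mean level was lowest in YAP-TFE3 for 23 of 27 S phase and 27 of 29 mitosis genes. It was highest in a sub-confluent group (EVsub or CAMTA1) for 24 S phase and 22 mitosis genes, and highest in TAZ4SA or YAP5SA for 2 S phase and 7 mitosis genes. The highest and lowest groups were found for these members only, so no share over all genes stands beside these counts. Per kilobase of exon, the most abundant members in EV were PCNA at 163, CCNB1 at 150 and MCM7 at 88.6 CPM per kilobase, and the least abundant CCNE2 at 0.868, CENPE at 1.43 and E2F2 at 1.80.

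Further genes of the same processes, listed by their known roles, rose in most cases at low density and fell in most cases in YAP-TFE3. Of 40 other replication genes, 30 rose and 0 fell in EVsub against EV, and of 40 other mitosis genes 36 rose and 0 fell, where 19.8% of all genes rose. They were led by ASPM, a spindle pole protein (2.11 ± 0.32, adjusted p = 3.18e-05), and WDHD1, a fork protein (1.32 ± 0.19, adjusted p = 1.57e-05). In YAP-TFE3 against EV 29 and 35 fell, where 22.6% of all genes fell, led by CLSPN (claspin, a checkpoint mediator at forks, -1.84 ± 0.34) and ASPM (-1.73 ± 0.33), and 1 and 0 rose. In the libraries labelled TAZ4SA, 1 replication gene rose and 13 fell. CDC7, the kinase that fires origins, was among those that fell (-1.38 ± 0.16, adjusted p = 1.40e-07, transcript of 39.1% GC). Of the other mitosis genes, 8 rose and 9 fell. These were 20% and 22.5% of the wider mitosis list, near the 25.1% and 24.2% of all genes, and its median was 0.00. In YAP5SA 4 replication (10%) and 8 mitosis genes (20%) rose and 6 (15%) and 4 (10%) fell, shares below the 22.7% and 21.6% of all genes, with CDC7 at -1.07 ± 0.16. In TAZ-CAMTA1 the only call was KIF23, a cytokinesis motor (0.63 ± 0.15, adjusted p = 0.0142), which was lost without any 1 of 3 libraries, and TFE3 and CAMTA1 had none.

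Of 15 genes of the RB family, the DREAM complex and further E2F factors (E2F3, E2F6 and E2F7 among them), RB1 fell furthest in both mutants. RB1 was at 127, 108 and 98.6 CPM in EV, at 35.8, 37.7 and 43.0 in the libraries labelled TAZ4SA (-1.52 ± 0.14, adjusted p = 2.46e-09) and at 40.6, 39.9 and 47.1 in YAP5SA (-1.38 ± 0.14, adjusted p = 1.08e-08). No library overlapped with EV, and the RB1 transcript had 37.1% GC. LIN54, the DREAM subunit that binds CHR elements, rose in YAP5SA (0.93 ± 0.15), in YAP-TFE3 (0.94 ± 0.14) and in the libraries labelled TAZ4SA (0.62 ± 0.15). In each of those 3 comparisons 4 of the 15 genes rose (26.7%) and 4 or 5 fell (26.7% or 33.3%), shares near those of all genes given above, and in EVsub 9 rose (60%, where 19.8% of all genes rose) and LIN37 fell.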

How the data were processed

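The authors aligned paired-end reads of polyA-selected RNA to hg38 with an Ensembl annotation (bcbio-nextgen, Hisat2) and deposited raw read counts per gene for each of 24 libraries. The library kit was stranded. The methods also describe Salmon pseudo-alignment and tximport for gene-level counts, and do not state whether the deposited whole-number tables came from that route or from the Hisat2 alignments. From these counts, edgeR 4.0.16 in R 4.3.3 was used for TMM scaling and its quasi-likelihood test, with 1 mean per group over all 24 libraries, a minimum mean count of 5, and Benjamini-Hochberg adjustment over 19997 genes in each of 13 comparisons. A gene was called at an adjusted p under 0.05. The SE of a fold change is its size over the root of F. The members and the further lists were chosen with earlier results of these data known. Genes named with a fold change were representatives of each list, the 2 most changed called genes per list and direction, members called against their list's majority or not called in EVsub, and for a further list its most changed gene per direction. Alternatives were DESeq2 1.42.0, other scalings, filters and sample sets, a replicate block, and, chosen after seeing the data, offsets for exon length and GC content (lowess, span 0.3) and fits without YAP-TFE3 replicate 3. The test was checked on simulated counts with an equal spread for every gene and a small set of genes changed in EVsub only. That setting differs from these data, so the check does not cover libraries as unequal as those of YAP-TFE3. P-values measure the spread between separately transduced lines, and counting error is smallest for the deeper libraries. Exon lengths and GC come from GENCODE 44.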

Additional observations from a re-analysis of the deposited data

How the results depend on the processing

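Of 3939 alternative values for 251 named fold changes, 144 lost the call, 35 gained one and 2 reversed. Both reversals came with the GC content offset, POLD2 in TAZ4SA against EVsub (-0.0068) and DLGAP5 in TAZ-CAMTA1 against TAZ4SA (-0.028). The causes were not tested. Total-count scaling gave medians of 0.54 (S phase) and 0.68 (mitosis) in EVsub against EV, -0.39 and 0.15 in TAZ4SA against EV, -0.17 and 0.25 in YAP5SA against EV, -0.42 (mitosis) in TAZ4SA against EVsub, and 0.28 and -0.14 in TAZ-CAMTA1 against TAZ4SA. The exon length offset gave medians of 0.65 and 0.78 in EVsub against EV. The GC content offset gave 0.67 (S phase) in EVsub against EV, 0.42 (mitosis) in TAZ4SA against EV and -0.40 (mitosis) in TAZ4SA against EVsub. With no filter the S phase median in EVsub against EV was 0.64, and 1 mitosis gene was called in TAZ-CAMTA1 against EV. With only the compared groups fitted, 26 S phase genes were called in EVsub against EV and 14 in TAZ4SA against EV. Leaving out each library in turn gave medians of 0.54 to 0.66 (S phase) and 0.75 to 0.82 (mitosis) in EVsub against EV and 0.30 to 0.42 (mitosis) in TAZ4SA against EV, and 0 to 1 called S phase genes in TAZ-CAMTA1 against EV and 5 to 12 in YAP5SA against EV, the last without YAP-TFE3 replicate 3. The fit without YAP-TFE3 replicate 3 called 13 S phase genes in TAZ-CAMTA1 against TAZ4SA. Replicate numbers did not pair the libraries (mean correlation of deviations from -0.05 to 0.13 over the 13 comparisons, never over 0.1 in every pair). With the replicate block, 16 S phase and 28 mitosis genes were called in EVsub against EV, 9 and 21 in TAZ4SA against EV, 8 and 20 in YAP5SA against EV, and 21 mitosis genes in TAZ4SA against EVsub, and no count moved by more than 1.5 times. With 3 libraries per group, differences larger than the errors given could also go uncalled, as that of E2F1 did in EVsub against EV.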

Other observations

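Replicates of a group differed widely in some mitosis genes, picked here after their values were seen. CENPE was at 8.13, 26.4 and 14.9 CPM in TFE3 and at 12.2, 5.59 and 3.96 in YAP-TFE3, and in EV and EVsub replicate 1 was the highest of 3 (20.4 and 101 CPM). CENPF was at 72.9, 172 and 99.6 CPM in TFE3 and at 136, 81.6 and 55.3 in YAP-TFE3. TTK, at 18.7, 40.9 and 29.7 CPM in TFE3 and at 21.0, 12.6 and 11.1 in YAP-TFE3, had the same order of replicates in both groups as CENPE. CCNB1, by comparison, was at 296, 361 and 255 CPM in TFE3 and at 200, 188 and 179 in YAP-TFE3. What sets these differences between replicates was not tested.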
